A study of Rattus norvegicus with 20 samples.

Results

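The choroid plexus of untreated lean Zucker rats was described from 6 RNA-seq libraries, 1 per rat, out of 20 libraries in the series. They were chosen by their labels, as the lean rats numbered 1 to 6 that received no treatment, and no other group was compared. The rats were female, 16 weeks old, fed normal chow and, in the study's methods, heterozygous for the fa allele of the leptin receptor gene (+/fa), so each carried 1 mutant allele. Elsewhere the study calls the lean rats non-mutated, and the genotype was not checked here. The plexus of the lateral and the 4th ventricle entered each sample, and the study did not control the estrous cycle of the rats. The values are TPM (transcripts per 1000000), in which gene length and sequencing depth have been divided out. Levels of different genes are therefore set side by side, while the number of reads in each library is not known. Such comparisons are less sure for very short genes. In mitochondrial pairs on 1 transcript, given below, the shorter gene had the higher TPM.

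The choroid plexus is a folded tissue in the brain ventricles, with a single layer of epithelial cells around a core of connective tissue and leaky capillaries. Its epithelium secretes most of the cerebrospinal fluid (CSF): ions are moved from blood to ventricle by the Na+/K+-ATPase, the Na+, K+, 2Cl- cotransporter NKCC1 and bicarbonate transporters, and water passes in part through aquaporin 1. The same cells release carrier proteins and growth factors into the CSF, bear tufts of cilia and hold many mitochondria. RNA of the whole tissue mixes all of its cell types, so fewer cells of a type and less RNA per cell cannot be told apart.

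Of 32883 Ensembl genes in the files, 11941 averaged 1 TPM or more in the 6 rats, 5988 at least 10 TPM, 902 at least 100 TPM and 70 at least 1000 TPM. The libraries were alike: over the 11941 genes, the Pearson correlation of log2(TPM + 0.1) between 2 rats lay between 0.964 and 0.977 for the 15 pairs, as a description across genes of libraries from the same tissue. Symbols were at hand for 2616 genes, which held 89.5% of the mean TPM. They cover 1985 of the 2000 genes with the highest mean, down to 43.4 TPM, so only 15 genes above that level have no symbol here. The symbols came from shortened copies of the paper's Additional files, and list members without a symbol have no value here.

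The marker genes of choroid plexus epithelium were all found, 15 of 15, with means from 58.2 TPM for Lmx1a to 340007 TPM for Ttr. Markers of multiciliated cells were named in 8 of 9 cases, of fibroblasts in 6 of 9, of mural cells in 3 of 5, of macrophages in 3 of 9 and of endothelium in 1 of 5. The summed fibroblast markers lay between 1147 and 1300.5 TPM and the summed macrophage markers between 492 and 566 TPM. None of the 15 markers of neurons, astrocytes and oligodendrocytes was among the genes with a symbol, nor was any of the 21 genes of a longer list for brain parenchyma. Their single levels are not known here. Only 15 genes with a mean above 43.4 TPM had no symbol, so at most 15 of these markers can lie above that level. Symbols were at hand mainly for abundant genes, so the number of markers named per cell type follows their level and does not measure composition. The epithelial marker levels match the labelled tissue, but the lists were chosen with earlier results of these data known, so this is no test.

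A few transcripts held most of the TPM. The 10 most abundant genes held 46.7% and the 25 most abundant held 52.0%, 19 genes held 50% and 2306 held 90% of the mean TPM. The order at the top was stable, with 23 genes among the 25 highest of every rat and 28 genes in the 25 highest of at least 1 rat. Among the 100 highest, 86 genes were shared by all rats and 113 appeared in at least 1. The number of genes that held 50% of a rat's TPM went from 8 in rat 6 to 28 in rat 5, the rats with the highest and the lowest share of Ttr.

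**Figure D1:**
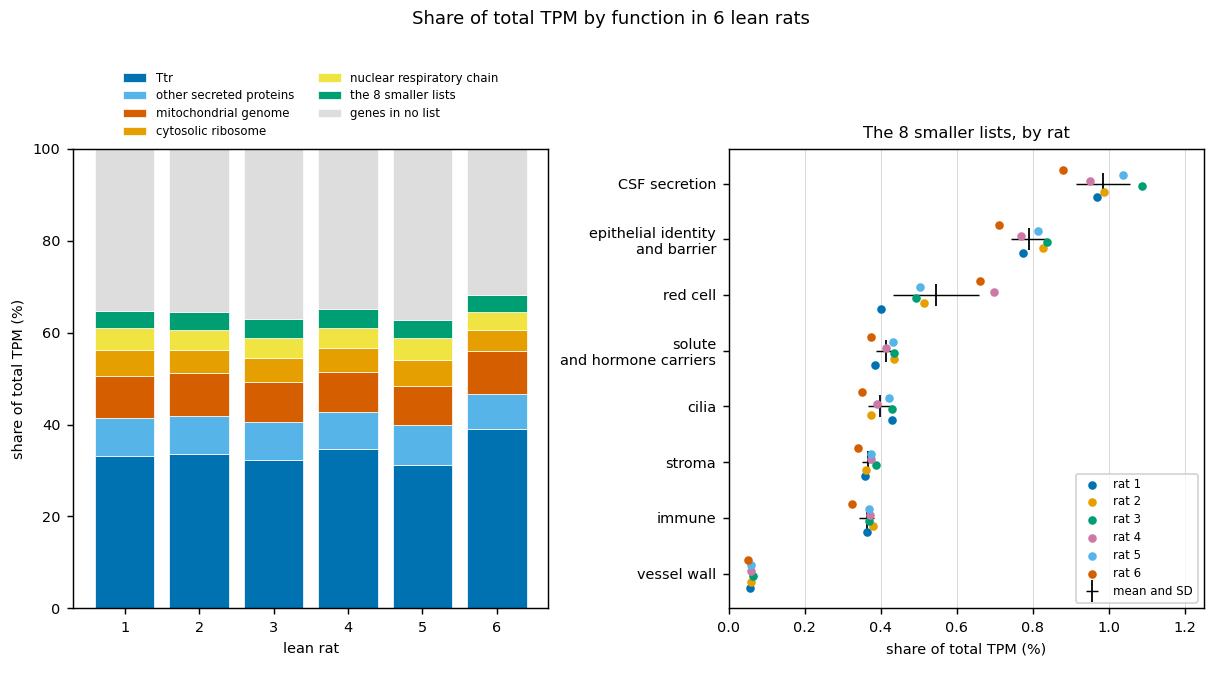
Share of total TPM by function in lean rats 1 to 6. Left, stacked bars of the share in percent of each rat's TPM for Ttr, other secreted proteins, the mitochondrial genome, cytosolic ribosomal proteins, the nuclear respiratory chain, the 8 smaller lists together and genes in no list. Right, each of the 8 smaller lists with 1 point per rat and the mean with its SD. Ttr took 31.2 to 39.0% of the TPM, and the CSF secretion list 0.880 to 1.09%.

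Secreted proteins were by far the largest functional class, with 42.2 ± 2.43% of the TPM (SD, n = 6) for 55 named of 59 listed genes. Ttr (ENSRNOG00000016275), which encodes transthyretin, the carrier of thyroxine and retinol-binding protein in CSF, made up 80.6% of this class. Its level was 311516 TPM in the lowest rat, 334519 at the median and 390135 in the highest, a mean of 34.0 ± 2.74% of all transcripts. Rat 6 stood above the other 5 rats, which lay between 31.2 and 34.7%. Without Ttr the other 54 secreted protein genes held 8.17 ± 0.34% of the TPM.

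Cst3 (ENSRNOG00000005195), the gene of cystatin C, an inhibitor of cysteine proteases, came second in every rat, with 42426 to 48046 TPM and a median of 43609. Ttr exceeded it 7.71 ± 0.90 times, from 6.48 times in rat 5 to 9.20 times in rat 6. Ptgds, the lipocalin-type prostaglandin D synthase, which is also a carrier of lipophilic ligands in CSF, had 5604 to 6648 TPM (median 6459). Clu, the chaperone clusterin, had 4260 to 4682 TPM (median 4565), with a coefficient of variation (CV, SD over mean) of only 4.06%. Enpp2, which makes lysophosphatidic acid as autotaxin, had 3525 to 4498 TPM (median 3908).

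Growth factors and their binding proteins differed widely in level. Igfbp2, which binds insulin-like growth factors, had 3181 to 3810 TPM and its ligand gene Igf2 had 1268 to 1531 TPM. The means, 3666 ± 243 and 1410.4 ± 97.4 TPM, placed both genes among the 45 most abundant. Mdk, the heparin-binding growth factor midkine, had 2641 to 3216 TPM (median 2875). Sostdc1, an inhibitor of BMP and Wnt signalling, had 705 to 933 TPM and Gas6, a ligand of the TAM receptors, 633 to 788 TPM. Vegfa, the vascular endothelial growth factor, was much lower, with 39.3 to 52.1 TPM, and Bmp7, Tgfb2 and Fgf1 had medians of 55.2, 47.1 and 38.5 TPM.

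Other secreted products carried metals, lipids and antioxidant activity. Tf, the iron carrier transferrin, had 1923 to 2726 TPM, with the highest value in rat 2. Psap, the precursor of the saposins, had 2808 to 3383 TPM and Npc2, a cholesterol transfer protein of the lysosome, 370 to 424 TPM. Apoe, the apolipoprotein of brain lipoprotein particles, had 227 ± 18.5 TPM, and Sod3, the extracellular superoxide dismutase, 257 ± 19.4 TPM. Kl, the gene of klotho, which is a co-receptor of FGF23 and is shed into CSF, had 346 to 480 TPM (median 416). F5, coagulation factor V, had 159 to 218 TPM.

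The secreted protein genes varied like other genes with a symbol. The median CV of the 54 genes of the list with a mean of at least 1 TPM was 9.00%, against 9.03% for all 2562 genes with a symbol at that level and 11.4% for all 11941 genes. Glycam1, a mucin-like secreted glycoprotein, had 963, 986, 1162, 541, 1549 and 1099 TPM in rats 1 to 6, a CV of 31.2%, with rat 4 lowest and rat 5 highest. Selenop, the selenium carrier, had 65.7 to 122 TPM and a CV of 25.3%. Pon1, the antioxidant enzyme paraoxonase, and A2m, a protease inhibitor, followed with CVs of 19.3% and 16.5%. Penk, the proenkephalin gene, was the lowest of the list at 0.15 to 1.11 TPM, and its CV of 68.9% belongs to that level.

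Beside secreted proteins and mitochondrial transcripts, the 25 most abundant genes held a few of other kinds. Bsg, basigin, a membrane glycoprotein that chaperones monocarboxylate transporters, had 2677 to 3176 TPM (median 3042). Eef1a1, a translation elongation factor, had 2372 to 2729 TPM (median 2668). The uncharacterised LOC108352650 had 4854 to 6035 TPM, AABR07015078.2 had 2820.1 to 4417 TPM and LOC685963 had 2345 to 3019 TPM. AABR07015078.2 had the highest CV of the 25 genes, 15.6%.

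**Figure D2:**
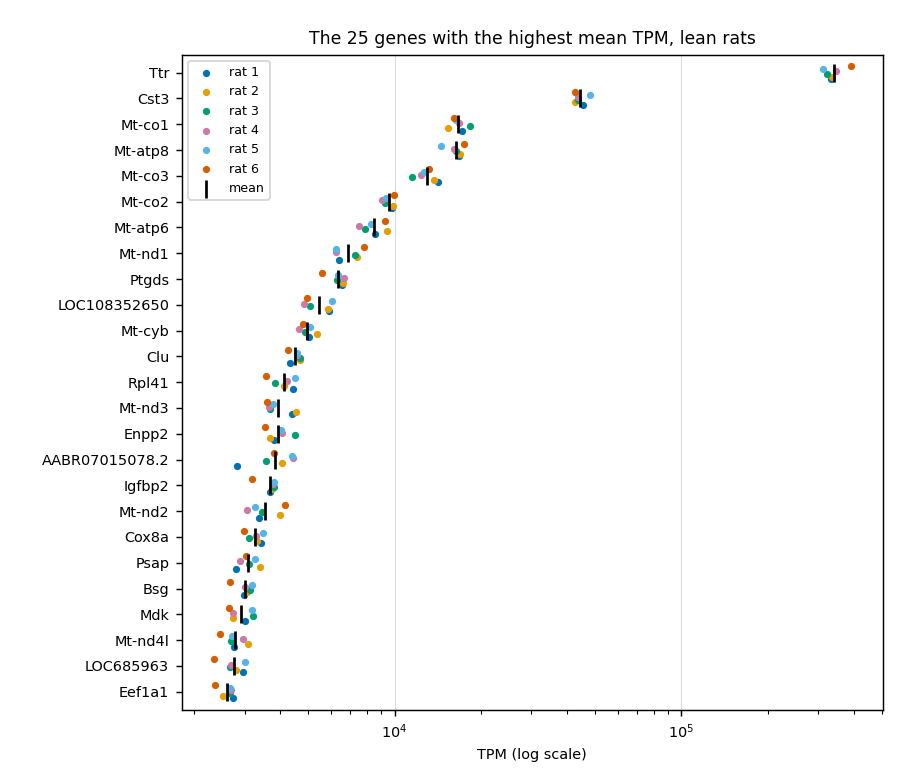
The 25 genes with the highest mean TPM in lean rats, in order. The horizontal axis is TPM on a log scale, each coloured point is 1 rat and the black bar is the mean. Ttr, at 311516 to 390135 TPM, lies apart from Cst3, at 42426 to 48046 TPM, and 10 of the 25 genes are encoded by the mitochondrial genome.

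Genes of CSF secretion were abundant one by one but small as a class. The 25 named of 35 listed transporters, channels, carbonic anhydrases and their regulators took 0.985 ± 0.071% of the TPM (SD, n = 6), from 0.880% in rat 6 to 1.09% in rat 3. Their means ran from 49.1 to 1496 TPM, and 20 of the 25 were above 100 TPM. The median CV was 9.11% as deposited and 6.30% when the TPM of each rat were rescaled without Ttr, the value being 9.03% and 7.13% for all genes with a symbol and 11.4% and 10.1% for all genes.

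Among pumps, the Na+/K+-ATPase that drives secretion at the luminal membrane is described here by its beta subunits, which bring the pump to the membrane, and a regulator. Atp1b1, the beta 1 subunit, had 852 to 1117 TPM (median 965). Atp1b3 had 172 ± 14.1 TPM and Atp1b2 had 94.0 ± 10.6 TPM. Atp1b1 was thereby 5.66 ± 0.20 times as abundant as Atp1b3 and 10.5 ± 1.07 times as abundant as Atp1b2. Fxyd1, phospholemman, a regulator of this pump, had 872 to 1040 TPM (median 927).

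Chloride and bicarbonate carriers followed. Slc12a2, the gene of NKCC1, had 214 to 279 TPM (median 236). Its activating kinase SPAK, encoded by Stk39, had a nearly equal level of 219 to 269 TPM (median 239), and the 2 ranges overlapped. Slc12a4, the K+, Cl- cotransporter KCC1, was lower, with 89.8 to 109 TPM. Cab39l and Cab39, whose MO25 proteins activate SPAK, had 436 ± 39.7 and 59.8 ± 5.62 TPM, a ratio of 7.29 ± 0.28.

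The bicarbonate transporters were led by Slc4a5, the Na+, HCO3- cotransporter NBCe2 of the luminal membrane, with 378 to 444 TPM (median 414). Slc4a2, the basolateral anion exchanger AE2, had 289 to 350 TPM (median 335), and Slc4a10, the basolateral Na+-dependent transporter NBCn2, had 191 to 255 TPM (median 218). The ranges of these 3 genes in the 6 rats did not overlap between Slc4a5 and Slc4a2 or between Slc4a2 and Slc4a10. Bicarbonate is supplied by carbonic anhydrases, and cytosolic Car2 was the highest gene of the list with 1354 to 1656 TPM (median 1506). The membrane-bound Ca12 had 474 ± 47.6 TPM and Ca14 215 ± 25.3 TPM, while Ca13 was the lowest gene of the list, with 49.1 ± 8.41 TPM. Car2 exceeded Ca12 3.16 ± 0.17 times.

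Water and ion channels ranged from the upper to the lower part of the list. Aqp1 (ENSRNOG00000011648), the luminal water channel, had 642, 676, 720.5, 659, 756 and 622 TPM in rats 1 to 6. Kcnj13, the inward rectifier K+ channel Kir7.1, had 640, 558, 769, 612, 698 and 458 TPM, a wider range than that of Aqp1, with CVs of 17.4% and 7.42%. Kcne2, a beta subunit of K+ channels, had 517 to 639 TPM and Clic6, a chloride intracellular channel protein, 740 to 860 TPM. Kcnk1, a leak K+ channel, had 102 ± 8.83 TPM. Trpv4, a cation channel that responds to osmotic and mechanical stimuli, had 64.1 ± 8.47 TPM.

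Regulators completed the list. Sgk1, the kinase induced by glucocorticoids and mineralocorticoids, had the widest spread of the list with a CV of 26.6%. Its levels in rats 1 to 6 were 159, 265, 165, 206, 132 and 154 TPM, with rat 2 highest. Slc9a3r1, the scaffold NHERF1, had 40.4 to 63.8 TPM. Of the 24 neighbours in the order of the 25 genes by mean, 6 had ranges that did not overlap and 11 kept their order in each of the 6 rats. Among the pairs that were apart were Car2 over Atp1b1, Fxyd1 over Clic6, Slc4a5 over Slc4a2, Atp1b3 over Kcnk1 and Atp1b2 over Trpv4. Where the ranges overlapped, the order of neighbours was within their spread.

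The 60 bases before the annotated start were read for members with a single promoter in the RefSeq table of build GRCr8, a newer assembly than the one the files were mapped to. Of 123 genes (the 25 most abundant, and the secreted protein, CSF secretion and epithelial lists), 73 had a single entry. The TATA box letters TATAAA, read on the gene's strand, occurred in 6 of the 73 (8.22%), and in 872 of all 33469 promoter windows of that length (2.61%). Those 33469 windows were not limited to genes with a single entry, so they are no matched background for the 73. The 6 genes were Tf, Aqp1, Kcnj13, Lgals3bp, Wfikkn2 and Atp1b2. The windows of the 3 most abundant are shown because they belong to an iron carrier, the water channel and the K+ channel described here. TATAAA is in capitals, and a match describes the letters only.
Aqp1, chr4:85812724-85812783, plus strand: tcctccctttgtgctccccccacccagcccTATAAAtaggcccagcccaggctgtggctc
Kcnj13, chr9:95518987-95519046, minus strand: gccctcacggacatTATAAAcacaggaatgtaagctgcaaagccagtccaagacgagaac
Tf, chr8:112695377-112695436, minus strand: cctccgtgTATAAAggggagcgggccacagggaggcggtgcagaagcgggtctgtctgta
The first T of the motif lay 30 bases before the start in Aqp1, 46 in Kcnj13 and 52 in Tf.

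**Figure D3:**
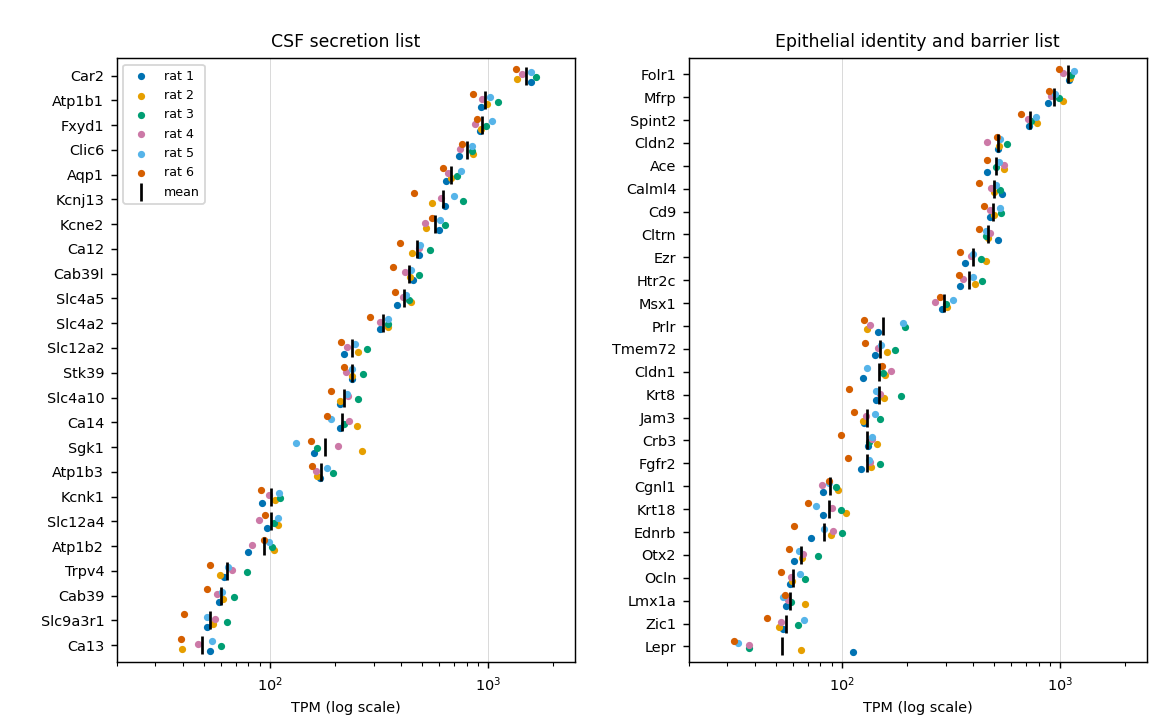
TPM of 24 named genes of the CSF secretion list (left) and the 26 named genes of the epithelial identity and barrier list (right). The horizontal axis is TPM on a log scale, each coloured point is 1 rat and the black bar is the mean. Most genes span a narrow range, while Sgk1, Prlr and Lepr spread widely, with Lepr at 112 TPM in rat 1 and at 32.2 TPM in rat 6.

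Genes that mark the plexus epithelium and its barrier held 0.789 ± 0.047% of the TPM (26 of 30 named), from 0.712% in rat 6 to 0.839% in rat 3. Folr1, which transports folate into CSF, led with 997 to 1162 TPM (median 1105) and a CV of 5.53%. Mfrp, a frizzled-related membrane protein, had 885 to 1029 TPM and Spint2, an inhibitor of serine proteases, 662 to 786 TPM. The CVs of these 3 genes and of Cldn2, Ace, Calml4, Cd9, Cltrn and Msx1 lay between 5.53 and 8.20%.

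Tight junction genes were led by Cldn2, which forms a paracellular pore for cations and water, with 465 to 572 TPM (median 523). Cldn1, a sealing claudin, had 125 to 169 TPM (median 154), so that Cldn2 was 3.56 ± 0.53 times as abundant. Jam3 had 131 ± 13.0 TPM, Cgnl1, the junction protein paracingulin, 88.3 ± 6.05 TPM and Ocln, occludin, 60.2 ± 5.27 TPM. Crb3, a polarity protein, had 131 ± 16.2 TPM, with rat 6 at 99.2 TPM below the other rats at 132 to 145 TPM. The keratins Krt8 and Krt18, which form filaments of simple epithelia as a pair, had 148 ± 25.4 and 87.2 ± 13.3 TPM.

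The apical surface and its enzymes were prominent. Ace, the angiotensin-converting enzyme, had 462 to 556 TPM, and Cltrn, the membrane glycoprotein collectrin, 427 to 520 TPM. Ezr, the linker ezrin of microvilli, had 349 to 460 TPM. Cd9, a tetraspanin, had 496 ± 33.7 TPM and Calml4, a protein of the brush border, 499 ± 40.9 TPM. Tmem72, a membrane protein of the plexus, had 151 ± 16.4 TPM.

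Receptors covered a wide range. Htr2c, the serotonin receptor for which this tissue is known, had 345 to 442 TPM (median 380). Prlr, the prolactin receptor, had 147, 131, 196, 136, 191 and 127 TPM in rats 1 to 6, a CV of 20.1%, with rats 3 and 5 high. Fgfr2 had 131 ± 14.4 TPM and Ednrb, an endothelin receptor, 83.1 ± 14.4 TPM. Lepr (ENSRNOG00000023664), the leptin receptor, the gene of the fa allele, had 112, 65.5, 37.8, 37.6, 33.7 and 32.2 TPM. Rats 1 and 2 were above the others, and leaving out rat 1 took the CV from 59.1% to 33.2% and the mean from 53.2 to 41.4 TPM.

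Transcription factors of the epithelium covered a wide range of levels. Msx1 had 269 to 324 TPM, Lmx1a 53.9 to 68.3 TPM and Zic1 45.8 to 67.3 TPM, the last with a CV of 14.2%. Otx2 was listed at 57.7 to 77.6 TPM (mean 65.4). A second identifier, LOC100911492, had the same value in each of the 6 rats, and the sum of both was 131 TPM. Of 25 neighbours in the order of the epithelial list, 5 had ranges apart and 8 kept their order in all rats.

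Carriers of solutes and hormones held 0.413 ± 0.026% of the TPM (29 of 33 named). Slc22a17, the lipocalin 2 receptor, was highest with 1038 to 1230 TPM (median 1155). Slc31a1, a copper importer, had 371 ± 37.6 TPM, Slc13a4, a sulfate transporter, 209 ± 21.6 TPM and Atp2b3, a plasma membrane Ca2+ pump, 179 ± 15.9 TPM. Stra6, a receptor for retinol-binding protein, had 73.1 ± 10.7 TPM.

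Carriers of thyroid hormone, a ligand of transthyretin, were of similar level. Slco1a2 had 218 to 248 TPM and Slco1c1 158 to 221 TPM. Slc19a1, a reduced folate carrier, and Slc23a2, an ascorbate transporter, were lower, at 108 ± 7.63 and 65.6 ± 5.40 TPM. Folr1, which also carries folate but stands in the epithelial list, was higher, with 997 to 1162 TPM. Slc22a8, the organic anion transporter OAT3, had 66.9 ± 5.00 TPM and Slc2a12, a glucose transporter, 77.1 ± 7.51 TPM. Slc6a20, a proline transporter, had 17.8 ± 2.98 TPM and the highest CV of the list (16.8%). The lowest was Slc15a2, the oligopeptide transporter PEPT2, with 9.12 ± 1.32 TPM.

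Transcripts of the mitochondrial genome were the second largest class, with 8.97 ± 0.35% of the TPM for 13 protein-coding genes (8.57 to 9.39%). As deposited this total varied least of the 12 lists between rats, with a CV of 3.92%, but after rescaling without Ttr its CV of 6.97% was the second highest, below the red cell list, and secreted proteins were lowest with 1.62%. The 3 cytochrome c oxidase genes held 3.92 ± 0.11%, led by Mt-co1 with 15356 to 18337 TPM (median 16620). The 7 genes of complex I held 2.07 ± 0.15%, from 718 ± 129 TPM for Mt-nd6 to 6908 ± 668 TPM for Mt-nd1. Mt-nd6, which lies on the opposite strand from the others, was the lowest and had the highest CV (18.0%). Mt-cyb, of complex III, had 4631 to 5386 TPM. Mt-nd3 and Mt-nd2 had 3597 to 4541 and 3052 to 4148 TPM, and Mt-nd5 861 to 1109 TPM.

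Pairs of mitochondrial genes on 1 transcript did not have equal levels. Mt-atp8 and Mt-atp6, which overlap on a joint transcript, had 16373 ± 990 and 8485 ± 762 TPM, a ratio of 1.94 ± 0.16. Mt-nd4l and Mt-nd4 had 2780 ± 218 and 1905.0 ± 146 TPM, a ratio of 1.46 ± 0.10. The shorter gene had the higher value in each rat, and the part of gene length in this was not tested.

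The nuclear subunits of the respiratory chain held 4.40 ± 0.31% of the TPM over 77 identifiers, from 3.91% in rat 6 to 4.75% in rat 5. By complex, the ATP synthase genes held 1.44 ± 0.10% (17 genes), cytochrome c oxidase 1.32 ± 0.09% (12), complex I 1.24 ± 0.09% (34), complex III 0.273 ± 0.022% (9 identifiers) and complex II, which has no mitochondrial gene, 0.0924 ± 0.0061% (4). The median level per gene was 929 TPM in cytochrome c oxidase, 664 TPM in the ATP synthase and 300 TPM in complex I. Cytochrome c itself, Cycs, had 342 TPM on average.

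Single nuclear subunits differed widely in level. Cox8a led with 2991 to 3485 TPM (median 3303), followed by Cox6c (2090.2 ± 189 TPM), Atp5me (2034 ± 182), Atp5mf (1815 ± 163), Cox6a1 (1585 ± 128) and Atp5f1e (1529.7 ± 107), all small subunits. The catalytic beta subunit of the ATP synthase, Atp5f1b, had 1137 to 1345 TPM, and mitochondrial Mt-atp6 exceeded it 6.81 ± 0.94 times. The lowest value was 36.7 ± 5.86 TPM for 1 of 2 identifiers with the symbol Uqcrb, a subunit of complex III. Ndufa1 had by far the highest CV, 36.3%, with 929, 450, 460, 413, 817 and 864 TPM in rats 1 to 6, while the 77 identifiers had a median CV of 8.42%. Rats 2, 3 and 4 were low for this gene and rats 1, 5 and 6 were high, with no value between 460 and 817 TPM.

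Cytosolic ribosomal proteins held 5.23 ± 0.37% of the TPM over 77 identifiers, from 4.61% in rat 6 to 5.61% in rat 1. Rpl41 led with 3554 to 4496 TPM (median 4160), then Rps27 (2415 ± 245 TPM), Rplp1 (2080.4 ± 175), Rpl37 (1971 ± 165), Rps16 (1599.9 ± 136) and Rpl13a (1237 ± 152). The lowest identifier of the list was Rpl7l1, which is named as like a ribosomal protein, with 44.7 ± 5.68 TPM. Rpl8 had 39.5 to 189 TPM and a CV of 46.8%, but an identifier without symbol had an identical value in 4 of 6 rats, and the sum of both had a mean of 365 TPM and a CV of 6.10%.

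Genes of motile cilia held 0.399 ± 0.033% of the TPM (43 of 65 named), from 0.350% in rat 6 to 0.431% in rat 3. None reached 1000 TPM, 13 were above 100 TPM and the median member had 69.4 TPM. Rsph9, a radial spoke protein, led with 238 to 309 TPM (median 279), followed by Cfap300 (249 ± 19.7 TPM), Cfap126 (225 ± 18.7), Cfap36 (202 ± 14.3), Dpcd (182 ± 15.2) and Cfap298 (174 ± 14.8), most of them associated with ciliary assembly or the axoneme. Other radial spoke genes were lower, with Rsph1 at a median of 72.5 TPM and Rsph4a at 67.7 ± 4.31 TPM.

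Genes of the axoneme and its assembly were moderate. Enkur had 103 ± 8.32 TPM, Cfap52 87.1 ± 8.62 TPM, the tektin gene Tekt1 78.8 ± 9.25 TPM and Zmynd10, a factor in dynein arm assembly, 73.6 ± 7.06 TPM. Drc1, of the nexin-dynein regulatory complex, had 34.1 ± 2.64 TPM and Cfap45, the lowest, 5.44 to 8.50 TPM. Fam183a had the highest CV of the list, 23.0%, with 232 TPM in rat 1 and 112 TPM in rat 6. The heavy chain genes of dynein arms in the list (Dnah5, Dnah9, Dnah11) and the master regulator Foxj1 had no symbol here.

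The stroma list held 0.366 ± 0.016% of the TPM (33 of 43 named), a total with a CV of 4.48%. Mgp, the inhibitor of calcification matrix Gla protein, had 651 to 790 TPM (median 741). Sparc, a collagen-binding matrix protein, had 329 to 398 TPM. The small leucine-rich proteoglycans were high, with Ogn at 222 ± 22.7 TPM, Prelp at 193 ± 15.5 TPM, Fmod at 153 ± 16.1 TPM and Dcn at 92.5 ± 13.0 TPM. Igfbp7 had 204 ± 14.8 TPM, Lgals1 171 ± 17.3 TPM and Timp3, an inhibitor of metalloproteinases, 144 ± 20.6 TPM.

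The fibrillar collagen genes with a symbol were low beside these, while Col1a2 and Col3a1 have no value here. Col5a1 was the lowest member with 2.38 to 3.26 TPM, and Col1a1, the main collagen of connective tissue, had 4.92 TPM on average. Col27a1 had 12.2 ± 3.55 TPM and the highest CV of the list, 29.2%, with rat 2 highest at 18.3 TPM. Pdgfra, a fibroblast marker, had 25.4 ± 2.99 TPM.

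Genes of the vessel wall held only 0.0578 ± 0.0038% of the TPM, with 9 of 22 named. The mural cell genes Rgs5 and Myl9 had 91.7 to 119 and 79.7 to 106 TPM, and Tagln, of smooth muscle, 55.2 ± 5.40 TPM. Tinagl1 had 60.5 ± 3.94 TPM, Cavin1, of caveolae, 59.5 ± 4.55 TPM and Epas1, the hypoxia-inducible factor of endothelium, 57.5 ± 7.63 TPM. Plvap, which forms the diaphragms of fenestrated capillaries, was the lowest with 40.0 to 51.1 TPM. Tpm2 had the highest CV, 13.5%.

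Red cell genes held 0.545 ± 0.112% of the TPM, and their total varied most of the 12 lists, with a CV of 20.6%. The share was 0.400% in rat 1, at most 0.514% in rats 2, 3 and 5, 0.660% in rat 6 and 0.699% in rat 4. Hba-a1, an alpha globin gene, had 1685 to 3045 TPM (median 2199) and Hbb, a beta globin gene, 783 to 1414 TPM (median 963). The ratio of these 2 genes stayed between 2.12 and 2.39. Hba-a2 had 844 ± 134 TPM, LOC100134871 849 ± 167 TPM and Hbb-bs 342 ± 71.0 TPM. Slc4a1, the anion exchanger of red cells, was at 0.09 to 0.29 TPM. Rats 4 and 6 were highest for all 5 genes of this list above 100 TPM, and how much blood each sample held was not measured.

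The immune list held 0.363 ± 0.020% of the TPM (25 of 49 named), with rat 6 at 0.323% below the other rats at 0.364 to 0.380%. Broadly expressed genes led, with Tmsb4x, thymosin beta 4, at 663 to 770 TPM and B2m, the light chain of MHC class I, at 587 to 677 TPM. Psme1, a proteasome activator, had 233 ± 11.7 TPM and the interferon-inducible Ifi27 had 162 ± 21.9 TPM. Among macrophage and antigen-presentation genes, Lyz2, lysozyme, was at 259 to 341 TPM, Cd74, the invariant chain, at 134 to 171 TPM and RT1-Da, an MHC class II chain, at 67.1 to 98.3 TPM.

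The rat MHC genes had the widest spread of the immune list. RT1-A2 (ENSRNOG00000030712), of class I, had 58.7, 191, 163, 154, 52.2 and 44.1 TPM in rats 1 to 6, a CV of 59.5%. RT1-S3, also of class I, had 43.8, 117, 83.9, 89.2, 47.3 and 39.2 TPM and RT1-Db1, of class II, 11.9, 19.7, 26.8, 27.5, 5.21 and 7.65 TPM. In each of the 3 genes rats 2, 3 and 4 had higher values than rats 1, 5 and 6. How many of all genes share this order was not counted. RT1-A1 and RT1-CE5 did not follow that order, with 86.7 to 152 and 56.4 to 96.5 TPM and with rat 5 and rat 1 highest. RT1-CE7 had 42.7 to 81.7 TPM, with rat 2 highest. The class II chain RT1-Da did not follow that order either, with 76.8 TPM in rat 2 and 87.7 TPM in rat 1. Nor did Cd74, with 156 TPM in rat 2 and 167 TPM in rat 1. B2m, whose product pairs with class I chains, had a CV of only 5.19%. The class I RT1 genes are close copies of each other, and the authors' program divides reads that map to several of them. The part of this division in the class I values was not tested.

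**Figure D4:**
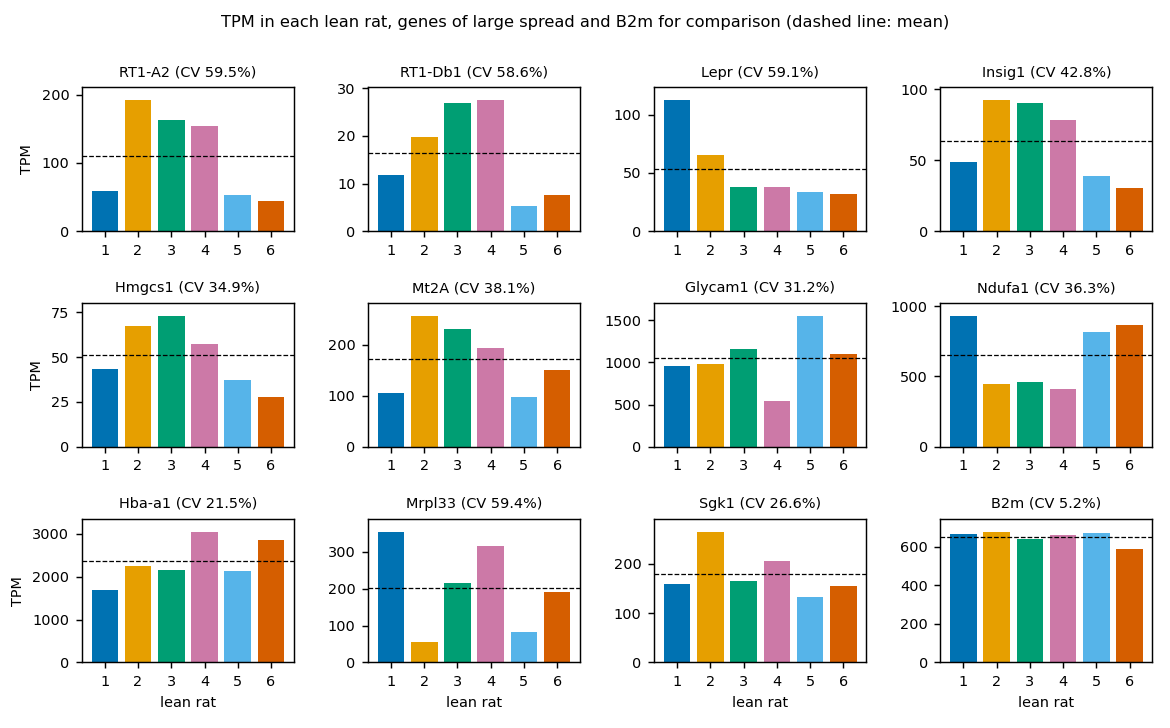
TPM of 12 genes in lean rats 1 to 6, with the mean as a dashed line and the CV in each title. The vertical axis is TPM from 0. RT1-A2, RT1-Db1, Insig1, Hmgcs1 and Mt2A are higher in rats 2, 3 and 4 than in rats 1, 5 and 6, Ndufa1 is lower in them, and B2m is nearly level. The share of all genes with such a split was not counted.

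Spread between rats depended on level. The median CV was 14.7% for the 5953 genes with a mean from 1 to 10 TPM, 9.75% for 5086 genes from 10 to 100 TPM, 8.23% for 832 genes from 100 to 1000 TPM and 8.41% for the 70 genes above. Over all 11941 genes it was 11.4% (quartiles 8.56 and 16.3%), and over the 2562 of them with a symbol, which are the more abundant, 9.03%. A CV above 50% was found in 300 genes (2.51%), of which 259 had a mean under 10 TPM. The list medians lay close together, from 7.85% for the mitochondrial genome to 9.97% for stroma, except 13.6% for the immune list and 20.7% for the red cell list. Their order depended on the scale, since without Ttr the lowest was the nuclear respiratory chain with 5.42%, and the mitochondrial genome had 9.57%.

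Of the genes with a symbol and a mean of at least 10 TPM, the 10 with the highest CV were a mixed group. They were 7SK (CV 71.0%), NEWGENE_1586233 (63.3%), RT1-A2 (59.5%), Mrpl33 (59.4%), Lepr (59.1%), RT1-Db1 (58.6%), Cebpzos (58.1%), Tmem167a (49.8%), LOC100912380 (49.6%) and Rpl8 (46.8%). 7SK is a small noncoding RNA that holds an elongation factor inactive, and Mrpl33 encodes a mitochondrial ribosomal protein. NEWGENE_1586233 was at 0.71 TPM in rat 1 and at 63.0 to 192 TPM in the others. Mrpl33 had 354, 54.4, 214, 315, 83.4 and 191 TPM.

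Leaving out 1 rat lowered the CV of 5 of these genes by a factor of more than 1.5. Leaving out rat 1 took the CV of NEWGENE_1586233 to 37.7% and that of Rpl8 to 30.5%, and leaving out rat 6 took that of Cebpzos to 32.8%. Rpl8 was low in 2 rats, with 39.5 TPM in rat 1 and 73.3 TPM in rat 5. Its sum with the identifier of equal value had a CV of 6.10%. LOC100912380 had 0.41 TPM in rat 2 and 49.2 to 62.9 TPM in the others, and without rat 2 its CV was 9.28%. Its partner Capns1, a calpain subunit, had the same value as LOC100912380 in 5 rats and 111 TPM in rat 2, and the sum of both had a CV of 8.44%. Atp5pb and LOC100911417 were alike in this respect, with the same value in 4 rats, single CVs of 23.1 and 17.1% and a CV of the sum of 6.70%. The fifth gene was Lepr, described with the epithelial list.

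The 10 genes with the lowest CV under the same rule were of moderate level. LOC100360413 varied least, with 291 to 301 TPM and a CV of 1.07%. Guk1, guanylate kinase, had 89.7 to 95.1 TPM (2.13%), Pdap1 94.1 to 99.9 TPM (2.34%) and Eif4b, a translation initiation factor, 52.0 to 55.9 TPM (2.65%). B3gat3, Tsen34l1, Tspan7, Rab5b, Acaa2 and Ech1 followed, with CVs from 2.80 to 3.26%. This order depended on the scale: after rescaling without Ttr, 0 of these 10 genes were among the 10 with the lowest CV, and LOC100360413 had a CV of 4.53%.

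**Figure D5:**
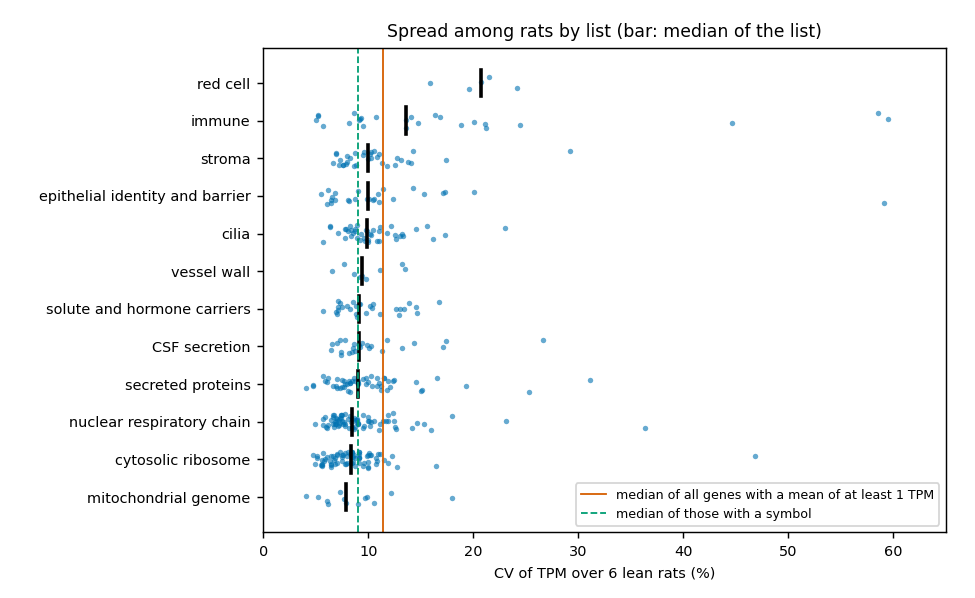
CV of TPM over the 6 lean rats by list, for members with a mean of at least 1 TPM. Each point is a gene, the black bar is the median of the list, the solid line the median of all such genes (11.4%) and the dashed line that of the genes with a symbol (9.03%). The red cell list (20.7%) and the immune list (13.6%) lie above both lines, and the other 10 lists below the solid line.

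Rat 6 had the highest Ttr share and often the lowest value elsewhere. Its total was the lowest in 9 of the 12 lists, and it had the lowest value of 5286 of 11941 genes (44.3%). When each rat was rescaled to the same total without Ttr, rat 6 was lowest in 20.8% of genes. In the CSF secretion list 19 of 25 genes were lowest in rat 6 as deposited and 8 after rescaling, and in the nuclear respiratory chain 71 of 77 and 30. The rescaled CSF secretion share was 1.49 ± 0.06% with a CV of 3.99%, where the CV as deposited was 7.24%.

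Across the 6 rats, totals of 8 measures were correlated in 28 pairs: Ttr, secreted proteins without Ttr, CSF secretion, the mitochondrial genome, the nuclear respiratory chain, cilia, stroma and immune. All share the fixed total of each rat, in which Ttr alone takes 34.0%. No pair had a Benjamini-Hochberg adjusted p under 0.05 in the exact two-sided permutation test of Pearson's r, and 7 had an unadjusted p under 0.05. With 6 rats and 28 pairs, 1 pair alone could not pass that threshold, even at the smallest p the test can give. The strongest pair was Ttr with the other secreted proteins, with r = -0.92 (exact permutation p = 0.00278, the smallest that the 720 orders can give, adjusted p = 0.0778). By Spearman's rho the ranks of this pair were exactly reversed in the 6 rats (exact permutation p = 0.00278, adjusted p = 0.0778), and r was -0.99 without rats 5 and 6, the farthest from the median. CSF secretion and stroma gave r = 0.89 (exact permutation p = 0.025, adjusted p = 0.167), rho = 0.83 (exact permutation p = 0.0583, adjusted p = 0.272) and r = 0.33 without rats 3 and 6. Those rats had the highest and the lowest CSF secretion total. Leaving them out narrows the range, so the fall in r cannot show whether the relation rested on them. The sign of the strongest pair turned with the scale, to r = 0.25 (exact permutation p = 0.603, adjusted p = 0.963) after rescaling without Ttr and to r = 0.69 (exact permutation p = 0.25, adjusted p = 0.859) without Ttr and the mitochondrial genome. The r of -0.99 without rats 5 and 6 likewise became 0.95 after rescaling without Ttr. After rescaling without Ttr, 0 of 28 pairs had an exact permutation p under 0.05 before adjustment.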

How the data were processed

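RNA was isolated from the choroid plexus of the lateral and 4th ventricles, libraries were sequenced in pairs and, per the submitters' processing notes, reads were processed with STAR 2.7.9a and RSEM 1.3.3 against Rnor_6.0 (rn6). The authors deposited, per gene and sample, TPM values, which sum to 1000000 in each library, and FPKM values, which in each library are the TPM times 1 factor and were not analysed further. RSEM divides reads that map to several genes among them by estimation. No read counts were used here, so the depth of each library is unknown beyond the sequencing output that the study's methods state. No counting interval or detection limit is given.

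Only lean rats 1 to 6 without treatment entered, and no table column was without a sample (0 columns). Symbols for 2616 of 32883 Ensembl identifiers came from shortened copies of Additional files 2 and 4 of the paper, of which no measured value was used. A gene without a symbol here may therefore have one in the full versions. Genes were ranked by mean TPM, and each list was summed and divided by the rat's total. CV and the SD of log2(TPM + 0.1) were computed where the mean over rats was 1 TPM or more. Totals of 8 measures were correlated with exact two-sided permutation tests and Benjamini-Hochberg adjustment over 28 pairs. A sample far from the others was sought with Dixon's criterion (0.625 for 6 samples). Identifiers with equal TPM above 0 in at least 4 rats were counted as sharing reads.

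The members and lists were chosen with earlier results of these data known. By rule, the text names the 25 most abundant genes, in each list the 6 highest, the lowest and the most variable member, the 10 most and 10 least variable genes with a symbol and at least 10 TPM, and every CSF secretion and epithelial gene (154 in all). A further 70 genes were chosen after their values were seen. Of all these, 3 are not reported here. Alternatives were rescaling without Ttr, or without Ttr and the mitochondrial genome, leaving out each rat, median-of-ratios size factors, other minimums, a pseudocount of 1, medians over rats, log means of list members and, chosen after seeing the data, summing identifiers with equal values. The scripts (Python 3.11.15, pandas 2.3.3, numpy 2.4.6, scipy 1.17.1) were tested on simulated data.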

Additional observations from a re-analysis of the deposited data

Results flagged for a closer look

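Dixon's criterion for 6 samples marked 9 of the 224 named genes (4.02%) and 1 of 12 list totals as having 1 rat far from the other 5. It marked 713 of all 11941 genes (5.97%), and chance alone marks about 1 in 20. The named genes were chosen in part by their spread in these same rats, so their rate cannot be set against that of all genes. Rat 6 was the low one for Ptgds (5604 TPM, others 6305 to 6648), Igfbp2 (3181 TPM, others 3674 to 3810), the ferritin heavy chain gene Fth1 (1487 TPM, others 1640.4 to 1728) and Crb3 (99.2 TPM, others 132 to 145). It was also low for the immune list (0.323% of the TPM, others 0.364 to 0.380%). Cebpzos was high in rat 6, with 115 TPM against 25.5 to 58.4 TPM.

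Rat 2 was the high one for Mt-nd4 (2192 TPM, others 1794 to 1912), Lmx1a (68.3 TPM, others 53.9 to 58.9) and Capns1 (111 TPM, others 49.2 to 62.9). It was the low one for LOC100912380 (0.41 TPM, others 49.2 to 62.9), whose values equal those of Capns1 in the other 5 rats.

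Rat 6 also had the highest Ttr share. After rescaling without Ttr, 3 of the 10 items were still past the criterion, namely Capns1, LOC100912380 and Cebpzos. Rat 6 was then at 0.530% for the immune list beside 0.535 to 0.572% in the others, and at 163 for Crb3 beside 197 to 218 on the rescaled TPM.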

How the results depend on the processing

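List shares depended on what stood in the total. Without Ttr in the total, CSF secretion held 1.49%, secreted proteins 12.4%, the epithelial list 1.20%, carriers 0.6253%, cilia 0.604%, stroma 0.555%, the vessel wall 0.0875%, red cells 0.831%, the immune list 0.550%, the mitochondrial genome 13.6%, the nuclear respiratory chain 6.66% and ribosomal proteins 7.92%. Without Ttr and the mitochondrial genome the shares, in that order and without the latter, were 1.73, 14.3, 1.38, 0.724, 0.699, 0.643, 0.101, 0.963, 0.636, 7.71 and 9.17%. With these 2 totals 186 and 288 genes held 50% of the TPM, and 3489 and 3911 held 90%, in place of 19 and 2306. With Ttr and the mitochondrial genes kept in the order, the same 25 genes were the highest under both rescalings, by medians over rats and without any 1 rat.

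The median CV over genes, 11.4%, became 10.1% under both rescalings, 9.80% with size factors, 13.4% with a minimum of 0.1 TPM and 15.9% with no minimum. The median SD of log2 values, 0.163, became 0.145 and 0.145 under the rescalings, 0.140 with size factors, 0.190 and 0.207 with the lower minimums and 0.145 with a pseudocount of 1. Size factors also moved the median CV of 9 lists by more than 1 jackknife standard error over rats, for example to 5.21% for CSF secretion, to 10.9% for the mitochondrial genome and to 25.7% for red cells. No correlation passed the adjusted threshold under any of the 3 other scales, and the lowest adjusted p with log means was 0.0519 (exact permutation test).

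Leaving out each rat in turn gave shares of 0.965 to 1.01% for CSF secretion, 41.3 to 42.6% for secreted proteins, 0.779 to 0.804% for the epithelial list, 0.408 to 0.420% for carriers, 0.393 to 0.409% for cilia, 0.362 to 0.371% for stroma, 0.0568 to 0.0591% for the vessel wall, 0.514 to 0.574% for red cells, 0.359 to 0.371% for the immune list, 8.89 to 9.05% for the mitochondrial genome, 4.33 to 4.50% for the nuclear respiratory chain and 5.15 to 5.35% for ribosomal proteins. The genes that held 50% numbered 17 to 22 and those that held 90% 2271 to 2354. The median CV lay between 10.6%, without rat 6, and 11.6%, and the median SD of log2 values between 0.151 and 0.166. Of the 10 most variable named genes, 7 were kept without rat 1, 9 without each other rat and 8 when identifiers with equal values were summed, which took the means of Rpl8 to 365, Atp5pb to 392, Capns1 to 115, Mif to 283 and Ppp2ca to 145 TPM. No paired analysis was possible because only 1 group was described. Without read counts, what depth limits cannot be stated.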

Other observations

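Genes of other functions were described after their values were seen, with no test. Among enzymes and regulators of cholesterol synthesis, 6 of 23 looked up had a symbol. Insig1, which holds back the sterol response, had 49.1, 92.2, 90.3, 78.5, 39.0 and 30.5 TPM in rats 1 to 6. Hmgcs1, the synthase before the rate-limiting step, had 43.2, 67.3, 72.8, 57.1, 37.1 and 27.6 TPM. Fdps, Sqle, Idi1 and Msmo1 had means of 82.2, 45.9, 44.4 and 62.7 TPM. As deposited, all 6 genes were highest in rats 2, 3 and 4 and lowest in rat 6. Of all 11941 genes, 44.3% were lowest in rat 6 as deposited and 20.8% after rescaling without Ttr. The share of all genes highest in rats 2, 3 and 4 was not counted. Mt2A, a metallothionein that binds zinc and copper, had 106, 257, 232, 194, 97.3 and 150.3 TPM, and Mt1 had 211 ± 40.1 TPM (SD, n = 6). Mt3, the brain-enriched member, varied less, with 293 ± 29.3 TPM.

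Antioxidant enzymes were abundant, with 0.680 ± 0.052% of the TPM for 14 of 15 genes looked up. Gpx4, which reduces lipid peroxides, had 1236 ± 107 TPM, Sod1, the cytosolic superoxide dismutase, 1154 ± 74.8 TPM and Gsta1, a glutathione transferase, 958 ± 81.7 TPM. Txn1, thioredoxin, had 163 to 281 TPM. Hspa5, the chaperone of the endoplasmic reticulum, had 352 to 504 TPM, lowest in rat 1 and highest in rat 6. Dbp, a transcription factor under circadian control, had 66.5 to 128 TPM (CV 25.2%). Rbm3 and Cirbp, RNA-binding proteins induced by cold, had 125 to 206 and 34.2 to 63.4 TPM.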
